A study of Mus musculus with 8 samples.

Results

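Cd22, Fcgr2b, Cd72, Siglecg, Fcrl1, Fcrl5, Fcrla, Cr2, Cd5 and Pirb are 10 of the 53242 genes in the deposited tables, and they form a group of co-receptors of the B cell antigen receptor, most of them inhibitory. The genes were listed by symbol, with earlier results of these data known, and each was found in both the count table and the table of TPM, a transcript level scaled to length and library. Splenic B cells were isolated with a B cell isolation kit. They came from C57BL/6 mice of 8 to 12 weeks that were Eif4a1 +/+ with Cd23-cre (control) or Eif4a1 fl/fl with Cd23-cre (4A1 KO). The controls therefore carried the Cre transgene too, which is active in immature and mature B cells of the spleen, and the loxP sites flank exons 2 to 4 of Eif4a1, an RNA helicase of translation initiation. The culture lasted 24 h and contained IL4 (40 ng/ml) and irradiated (120 Gy) CD40LB feeder cells, which express CD40 ligand and human BAFF. Before the feeder cells were removed with an antibody to their H-2Kd, the suspensions were incubated with 2.4G2, an antibody that binds the protein of Fcgr2b, in both genotypes. There were 4 libraries per genotype, with replicates 1 and 2 in batch A, replicates 3 and 4 in batch B, replicates 1 and 3 from males and replicates 2 and 4 from females. Replicate 1 of both genotypes had reduced viability and was left out of the tests, which therefore have n = 3 per genotype unless said, while the values of all 8 libraries are shown.

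Libraries held between 31727557 and 43210858 counts, and the library labelled 4A1 KO 1 was the smallest. Eif4a1 itself had 747 to 936 counts per 1e6 counts of the library (CPM) in control and 557 to 691 CPM in 4A1 KO libraries. It fell by 0.44 on the log2 scale (standard error 0.05, Benjamini-Hochberg adjusted p = 1.15e-04 in the quasi-likelihood test of edgeR), without overlap between the genotypes. This was under the log2 fold threshold of 0.5, so Eif4a1 was not called. Its counts cover the whole gene and not only the exons between the loxP sites, so they do not measure how complete the deletion was. The defining markers of B cells were abundant, with means of 1336 CPM for Pax5 and 5834 CPM for Cd74 in control and 1137 CPM for Pax5 and 6688 CPM for Cd74 in 4A1 KO, and Ms4a1 had 580 and 606 CPM. The 6 markers of that list summed to 7828 to 10814 CPM in control and 8137 to 11625 CPM in 4A1 KO, and Cd79a and Cd79b, described below, were called decreased. Ebf1 (log2 fold change 0.40), Cd74 (0.20) and Pax5 (-0.23) also had an adjusted p of at most 0.00295 but stayed under the fold threshold of 0.5 used for calls. Of 8 T cell markers, Cd3g was at 0 in every library. The summed CPM of that list, of which Lck made up most (means of 17.3 and 13.3 CPM), was 14.8 to 24.4 in control and 10.3 to 19.5 in 4A1 KO. Of 4 NK cell markers, Ncr1 and Klrb1c had 0 counts in every library, and the list summed to at most 0.0315 CPM. Of 9 myeloid markers, S100a8 and S100a9 were at 0 in every library, and that list summed to 8.86 to 14.9 CPM in control and 14.2 to 16.5 CPM in 4A1 KO. The macrophage marker Adgre1 (4.51 and 6.87 CPM) was called increased (0.62, adjusted p = 0.00687 in edgeR), though not over all 8 libraries (0.47), while Cd68 (0.41) and Lyz2 (0.65, adjusted p = 0.211) were not called. The 8 fibroblast markers, which the feeder cells could supply, summed to 27.6 to 47.9 CPM in control and 23.3 to 35.3 CPM in 4A1 KO, with Postn at 0 throughout. Among them Fn1 was called increased (0.86, adjusted p = 0.0215 in edgeR) and Col3a1 decreased (-1.57, adjusted p = 0.0437), the latter not over all 8 libraries, and Thy1 (-0.50, adjusted p = 0.00521) and Col1a1 (-0.41, adjusted p = 0.336) were not called. The 5 red cell and platelet markers summed to at most 1.01 CPM, most of it from Itga2b. The part of RNA from other cells in the values of the co-receptors was not tested.

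When antigen engages the B cell receptor, inhibitory co-receptors set how strong a signal must be before the cell responds. Most of them carry the immunoreceptor tyrosine-based inhibition motif (ITIM), whose tyrosine is phosphorylated by the kinase Lyn and then binds the phosphatases SHP-1 (Ptpn6), SHP-2 (Ptpn11) or SHIP-1 (Inpp5d), which remove the activating phosphates. Cd22 and Siglecg bind sialic acid on glycoproteins, Fcgr2b binds the Fc part of IgG in immune complexes, Cd72 binds the semaphorin Sema4d, and Pirb binds MHC class I. Fcrl5 can both inhibit and activate, and Cd5 dampens receptor signalling in B-1a cells and T cells. The remaining genes are not ITIM receptors. Cr2, a complement receptor, enhances the signal, Fcrl1 is regarded as activating, and Fcrla stays inside the cell.

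The coding sequences on the cytoplasmic side show which of the genes carry the pattern, so they are given first. The pattern searched was isoleucine, valine, leucine or serine, any residue, tyrosine, any pair of residues, and isoleucine, valine or leucine, encoded by 18 bases. It was found 4 times in Cd22, 3 times in Siglecg and Pirb, 2 times in Cd72 and 1 time in Fcgr2b, Fcrl5 and Cd5, and 0 times in Fcrl1 and Cr2. Fcrla had no membrane-spanning stretch by the hydropathy measure used. The pattern is common. It occurred in 14.5% of all windows of 100 codons and in 49.2% of the coding transcripts of the annotation, so a match describes the letters and not a working site. The matches that lie within 1 exon follow, 5′ to 3′ on the coding strand, with the tyrosine codon in capitals and GRCm39 positions. They were read from the GENCODE M39 transcripts.
Cd22, chr7:30566919-30566936, minus strand: gttagtTATgccatcttg
Cd22, chr7:30566458-30566475, minus strand: gtcactTACtcggtgata
Cd22, chr7:30566025-30566042, minus strand: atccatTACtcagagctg
Cd22, chr7:30565965-30565982, minus strand: gtagacTATgtgaccctc
Siglecg, chr7:43062112-43062129, plus strand: ctggacTACatcaatgtg
Siglecg, chr7:43067403-43067420, plus strand: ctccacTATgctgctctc
Siglecg, chr7:43067472-43067489, plus strand: tctgatTACacagaggtc
Cd72, chr4:43454498-43454515, minus strand: atcacgTATgcagacctg
Cd72, chr4:43454306-43454323, minus strand: ctcaccTACgagaatgtg
Fcgr2b, chr1:170788640-170788657, minus strand: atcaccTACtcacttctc
Fcrl5, chr3:87364691-87364708, plus strand: gtgattTACacagaagta
Pirb, chr7:3715785-3715802, minus strand: gtgaccTATgcccagctg
Pirb, chr7:3715695-3715712, minus strand: agtgtaTATgctactctg

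Of the 9 genes that passed the count filter, Cd22, Fcgr2b, Fcrl5, Fcrla, Cr2 and Pirb were decreased in 4A1 KO B cells and Cd72 was increased. Siglecg was lower and Fcrl1 higher at adjusted p = 0.00446 and 0.00182, but both stayed under the fold threshold. Cd5 had too few counts to be tested. Calls required both a log2 fold change beyond 0.5 in either direction and an adjusted p below 0.05. The 7 called genes of 9 stand beside 25.3% of the 14218 genes tested, the 6 decreased genes beside 13.7% and the 1 increased gene beside 11.6%. The median log2 fold change was -0.76 over the 9 genes and 0.01 over all genes tested. In every called gene the 4A1 KO library differed from its same-numbered control in the same direction in all 4 pairs. Without the replicate block, which takes out batch and sex together, 4 of the 9 genes were called, beside 21.1% of all genes tested, because Cd72 (adjusted p = 0.221), Fcrla (0.389) and Pirb (0.0602) no longer passed edgeR's test. With glmTreat of edgeR, which tests whether a change exceeds 0.5 on the log2 scale, 4 genes were called as well, Cd22, Fcgr2b, Fcrl5 and Cr2, beside 11.4% of all genes tested. On log2(TPM + 1), which takes transcript length into account, limma called 5 of the 8 genes that averaged 1 TPM or more, beside 20.2% of the 12976 genes tested on that scale. They were Cd22, Fcgr2b, Fcrl5 and Cr2, which were lower, and Cd72, which was higher. In these bulk samples fewer cells of a type and less RNA per cell cannot be told apart.

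**Figure D1:**
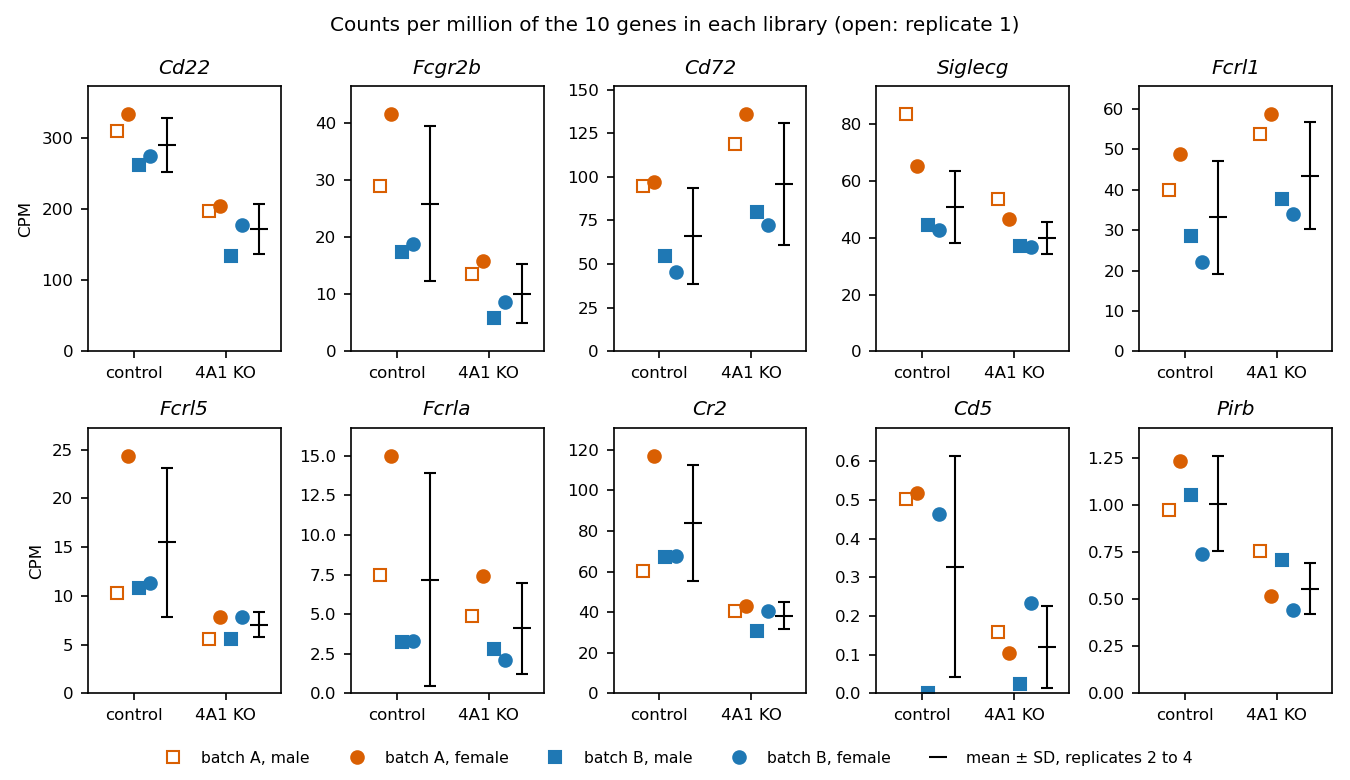
Library-scaled counts (CPM, linear axes from 0) of the 10 genes in each of the 8 libraries, with batch by colour, sex by symbol, replicate 1 as open squares and bars at the mean ± SD of replicates 2 to 4. Cd22, Fcgr2b, Fcrl5 and Cr2 have all 4A1 KO libraries below all control libraries, while the other genes overlap between the genotypes, and the batch A libraries of Fcgr2b, Cd72, Siglecg, Fcrl1 and Fcrla lie above the batch B libraries of the same genotype.

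**Figure D2:**
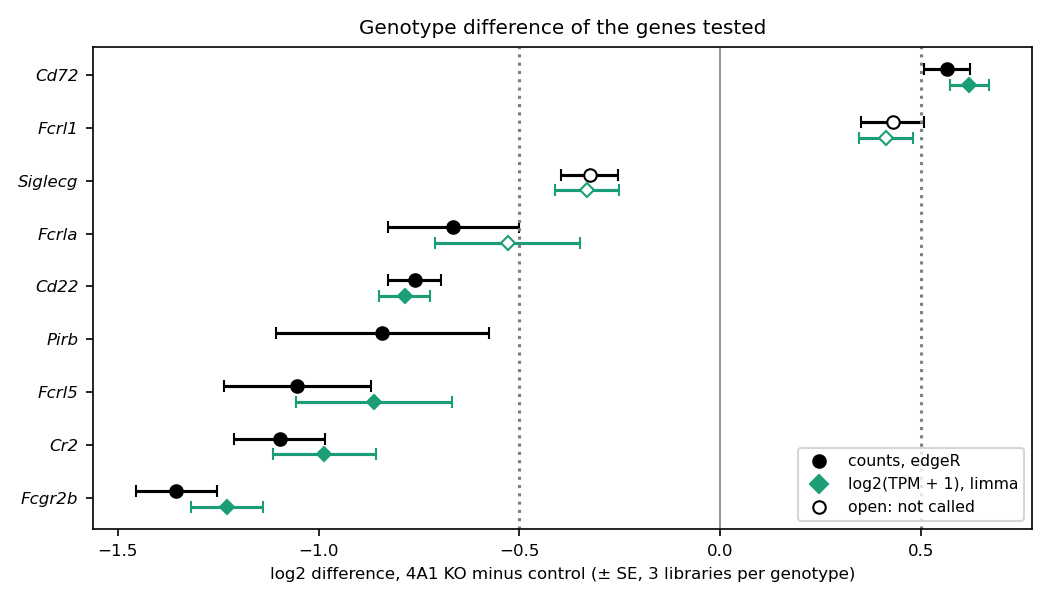
Log2 difference of 4A1 KO from control for the genes tested, ± SE with 3 libraries per genotype, for the counts (circles) and for log2(TPM + 1) (diamonds), where filled symbols were called and dotted lines mark -0.5 and 0.5. Fcgr2b lies lowest at -1.35 and Cd72 highest at 0.56 in the counts, and both readouts have the same sign for each gene.

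Among the sialic acid-binding receptors, the mRNA of Cd22 fell by 41.0% (log2 fold change -0.76, standard error 0.07), and Siglecg differed by -20.2% (-0.32, standard error 0.07), under the fold threshold. Cd22 (ENSMUSG00000030577, chromosome 7, 30564827 to 30579767, minus strand of GRCm39) dampens signalling of conventional B cells through tyrosines of its cytoplasmic tail. Its CPM were 310.4, 334, 262 and 275 in control replicates 1 to 4 and 197, 205, 134 and 178 in 4A1 KO replicates 1 to 4. Every control library was above every 4A1 KO library (exact permutation test over all 8 libraries, two-sided, p = 0.0286, the smallest p that 4 against 4 allow). Here and below, this permutation test takes no account of batch, sex or pairing, and it includes replicate 1. In edgeR's test adjusted p was 3.41e-05, and the fold change stayed between -0.83 and -0.66 when each replicate was left out in turn. Siglecg (ENSMUSG00000030468, chromosome 7, 43057628 to 43067782, plus strand) is best known for restraining B-1a cells. Its CPM were 83.4, 65.4, 44.4 and 42.8 in control and 53.7, 46.5, 36.9 and 36.6 in 4A1 KO. Every 4A1 KO library was below the control of its number, but batch A of 4A1 KO lay above batch B of control, so the genotypes overlapped (exact permutation test, p = 0.229).

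Fcgr2b, the inhibitory Fc receptor and the only Fc gamma receptor on B cells, had the largest decrease of the 9 genes tested and fell by 60.9%. Its gene (ENSMUSG00000026656) lies on chromosome 1 from 170786186 to 170804177 on the minus strand. The CPM were 28.9, 41.5, 17.3 and 18.8 in control replicates 1 to 4 and 13.6, 15.8, 5.82 and 8.62 in 4A1 KO replicates 1 to 4. All 4A1 KO libraries were below all control libraries although the batches differed strongly (exact permutation test, two-sided, p = 0.0286). On the TPM scale the highest 4A1 KO library, at 19.3 TPM, was above the lowest control library, at 18.4 TPM (exact permutation test, p = 0.0571). Its log2 fold change was -1.35 (standard error 0.10, adjusted p = 2.05e-05 in edgeR), and within batches the log2 ratios of same-numbered libraries were -1.08 and -1.38 in batch A and -1.56 and -1.12 in batch B. Fcgr3, an activating Fc receptor whose transcript is 96.3% identical to that of Fcgr2b over 512 bases, had 6 counts in all 8 libraries together. The remaining Fc gamma receptors Fcgr1 and Fcgr4 failed the count filter.

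Cd72, a C-type lectin-like receptor whose cytoplasmic tail is at the start of the protein, was the 1 gene called increased, by 47.8% (log2 fold change 0.56, standard error 0.06, adjusted p = 6.98e-05 in edgeR). Its gene (ENSMUSG00000028459) lies on chromosome 4 from 43446431 to 43455129 on the minus strand. The CPM were 94.5, 97.2, 54.9 and 45.6 in control replicates 1 to 4 and 119, 136, 79.7 and 72.2 in 4A1 KO replicates 1 to 4. Both 4A1 KO libraries of batch B lay below both control libraries of batch A, so that the genotypes overlapped over the 8 libraries (exact permutation test, two-sided, p = 0.229). Within each batch every 4A1 KO library was above every control library. The log2 ratios of same-numbered libraries were 0.33 and 0.48 in batch A and 0.54 and 0.66 in batch B. Tesk1, a kinase gene on the opposite strand, shares 2349 of the 3954 exon bases of Cd72, and it rose by 0.92 on the log2 scale (standard error 0.05, adjusted p = 1.02e-05). Tesk1 had 1998 to 2533 counts in control and 3590 to 4248 in 4A1 KO libraries. Reads were counted by strand, and whether reads of Tesk1 reached the values of Cd72 was not tested.

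Cr2 fell by 53.2%, while Cd81, a tetraspanin that associates with it, was at -0.06 on the log2 scale and did not pass the test (adjusted p = 0.400). Cr2 (ENSMUSG00000026616, chromosome 1, 194819119 to 194859091, minus strand) is the receptor for complement-coated antigen. The CPM were 60.1, 117, 67.0 and 67.6 in control replicates 1 to 4 and 40.8, 43.1, 30.6 and 40.7 in 4A1 KO replicates 1 to 4. Control 2 stood apart from the other controls, but the lowest control library was still above the highest 4A1 KO library (exact permutation test, two-sided, p = 0.0286). On the log2 scale the change was -1.10 (standard error 0.11, adjusted p = 7.82e-05 in edgeR) and -0.92 without replicate 2.

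Among the Fc receptor-like genes Fcrl5 and Fcrla fell, while Fcrl1 was higher but stayed under the fold threshold. Fcrl1 and Fcrl5 are neighbours on the plus strand of chromosome 3, 32.8 kb apart. Fcrl5 (ENSMUSG00000048031, 87343080 to 87407985) had 10.3, 24.3, 10.8 and 11.3 CPM in control replicates 1 to 4 and 5.58, 7.79, 5.55 and 7.80 CPM in 4A1 KO replicates 1 to 4. As with Cr2, control 2 was far above the other controls, and the genotypes did not overlap (exact permutation test, two-sided, p = 0.0286). In edgeR Fcrl5 changed by -1.05 on the log2 scale (standard error 0.18, adjusted p = 0.00127), and by -0.74 without replicate 2 (adjusted p = 0.00831). Fcrl1 (ENSMUSG00000059994, 87283634 to 87310241) had 40.0, 48.8, 28.6 and 22.1 CPM in control and 53.6, 58.6, 37.8 and 34.0 CPM in 4A1 KO. It was higher in the 4A1 KO library of each pair, with a log2 fold change of 0.43 (standard error 0.08) that stayed under the threshold, and the genotypes overlapped (exact permutation test, p = 0.229). Without replicate 2 it was 0.52 (adjusted p = 0.00624) and Fcrl1 was called.

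Fcrla, which encodes an Fc receptor-like protein that binds immunoglobulin inside the cell, lies 31.0 kb from Fcgr2b on the same strand of chromosome 1 (ENSMUSG00000038421, 170745145 to 170755152). Its CPM were 7.5, 14.9, 3.26 and 3.31 in control replicates 1 to 4 and 4.85, 7.40, 2.79 and 2.13 in 4A1 KO replicates 1 to 4. The difference between batches exceeded that between genotypes, and the genotypes overlapped (exact permutation test, two-sided, p = 0.400). Within each pair the 4A1 KO library was lower. In edgeR the change of -0.67 (log2, standard error 0.16, adjusted p = 0.00791) became -0.42 without replicate 2, with adjusted p = 0.121, so this call rested on that pair. On log2(TPM + 1) the difference was -0.53 (adjusted p = 0.0519 from limma), which did not pass.

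The remaining receptors were scarce. Pirb, the paired immunoglobulin-like receptor for MHC class I (ENSMUSG00000058818, chromosome 7, 3714408 to 3723416, minus strand), had 39, 50, 44 and 32 counts in control and 24, 20, 29 and 19 counts in 4A1 KO replicates 1 to 4. Scaled to the library these were 0.978, 1.24, 1.06 and 0.741 against 0.756, 0.520, 0.709 and 0.445 CPM, and only 4A1 KO 1 reached above the lowest control (exact permutation test, two-sided, p = 0.0571). This was a change of -0.84 on the log2 scale (standard error 0.27, adjusted p = 0.0249 in edgeR). The call was lost with DESeq2 (adjusted p = 0.197) and without replicate 2 (-0.64, adjusted p = 0.128). Transcripts of Pira1, Pira2, Pira12, Pira13 and Lilra6 are 95.5 to 97.3% identical to that of Pirb over 1913 to 1997 bases, so reads may have been split between them, and the value of Pirb is uncertain. These 5 genes had 2 to 24 counts each in all 8 libraries together. Cd5 (ENSMUSG00000024669, chromosome 19, 10694480 to 10716366, minus strand) had 20, 21, 0 and 20 counts in control and 5, 4, 1 and 10 counts in 4A1 KO. The count of 0 in control 3 allows a level of up to 0.0719 CPM (3 counts, counting error only), and 4A1 KO 3, the other library of the batch B males, had 1 count. Without the filter on low counts Cd5 was not called (log2 fold change -1.34, adjusted p = 0.140 from edgeR), and without replicate 3 it passed the filter and was called (-1.51, adjusted p = 0.0356). T cells also express Cd5, and the T cell markers Cd3e, Cd3d, Cd3g, Cd4 and Cd8a each had means of at most 0.0157 CPM. Trac (0.668 CPM in control and 0.515 CPM in 4A1 KO) and Lck, of the same list, were above Cd5, which had 0.327 and 0.121 CPM. The part of T cells in the value of Cd5 was not tested.

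The order of the 10 mRNAs by level, which is given in TPM because genes differ in length, changed at the top. In control B cells Cd22 was the most abundant (159 ± 18.8 TPM, SD, n = 3), followed by Cd72 (86.8 ± 30.2) and Fcrl1 (35.7 ± 14.2). Fcrl1 was above Fcgr2b within each library although their ranges overlapped. Fcgr2b (29.6 ± 16.2 TPM), Cr2 (28.2 ± 9.05) and Siglecg (27.4 ± 5.82) came next, and their libraries overlapped. Below them were Fcrl5 (12.2 ± 5.6 TPM) and Fcrla (9.90 ± 9.61), which overlapped too, and Pirb and Cd5 had 0.594 and 0.274 TPM. In 4A1 KO B cells Cd72 came first (133 ± 40.0 TPM), followed by Cd22 (92.8 ± 17.3) and Fcrl1 (46.9 ± 14.7). Cd72 was above Cd22 within each of these libraries although their ranges overlapped. Siglecg followed at 21.3 ± 2.14 TPM, above Cr2 (13.4 ± 2.08) and Fcgr2b (12.1 ± 6.60), which overlapped, and then came Fcrl5 (5.90 ± 1.04), Fcrla (5.52 ± 3.62), Pirb (0.338) and Cd5 (0.0854). Fcgr2b was above Fcrl5 within each 4A1 KO library although their ranges overlapped. Fcrl5 and Fcrla overlapped too, and their order differed between libraries.

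The exchange of Cd22 and Cd72 was seen in every library. The ratio of Cd72 to Cd22 in TPM was 0.750, 0.672, 0.530 and 0.410 in control replicates 1 to 4 and 1.57, 1.65, 1.6 and 1.06 in 4A1 KO replicates 1 to 4. The ratio of Fcrl1 to Fcgr2b was 1.07 to 1.68 in control and 3.29 to 6.43 in 4A1 KO, and that of Fcrl1 to Fcrl5 was 2.54 to 5.13 and 5.26 to 13.4. Cd22 relative to Cd79b, a signalling chain of the antigen receptor, was 0.176 to 0.244 in control and 0.192 to 0.276 in 4A1 KO, ranges that overlapped, with the 4A1 KO library above the control of its number in all 4 pairs. These 4 ratios were chosen after the values had been seen, and 3 of them set a gene that was higher in 4A1 KO over one that was lower, so they are a description with no test.

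**Figure D3:**
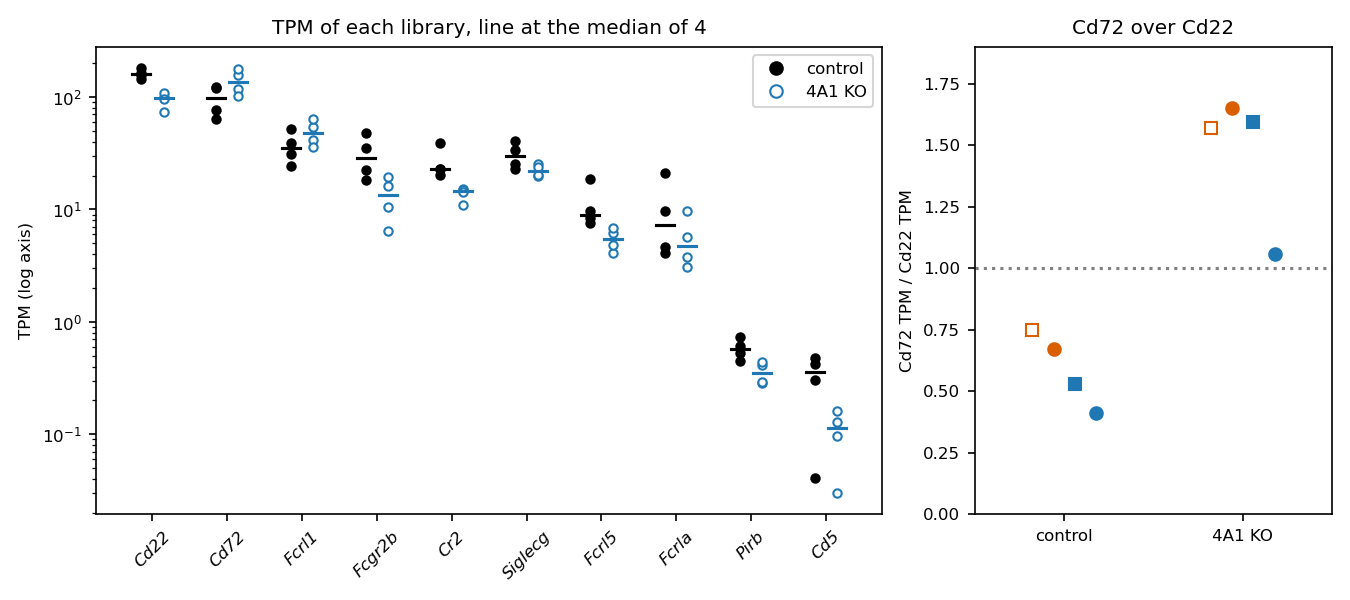
Left, TPM (log axis) of the 10 genes in the 4 control (filled) and 4 4A1 KO (open) libraries, with lines at the median of 4, ordered by the control mean. Right, the ratio of Cd72 to Cd22 in TPM per library, with batch A in orange, batch B in blue, males as squares, females as circles and replicate 1 open. The control ratios lie at 0.410 to 0.750 and the 4A1 KO ratios at 1.06 to 1.65, on either side of the dotted line at 1.

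Of the 9 co-receptor mRNAs tested 5 also differed between batches, and the batch term was negative for all 9. Terms for batch and sex, added after the data had been seen, were read from the fit of all 8 libraries. Batch B was lower than batch A by 1.52 on the log2 scale for Fcrla (standard error 0.21), and the batch term was -0.99 for Fcgr2b, -0.84 for Cd72, -0.73 for Fcrl1 and -0.60 for Siglecg. These 5 of 9 genes were called at an adjusted p of at most 0.00122, beside 6.75% of 14211 genes tested. For Cd22 the batch term was -0.32 (adjusted p = 0.00463), under the fold threshold, and Fcrl5 (-0.30), Cr2 (-0.30) and Pirb (-0.25) did not pass. Mean CPM of Cd72 were 95.9 in batch A and 50.2 in batch B of control, and 127 in batch A and 75.9 in batch B of 4A1 KO. Fcgr2b, which moved the opposite way with genotype, had 35.2 and 18.1 CPM in control and 14.7 and 7.22 CPM in 4A1 KO in the same order. The labels give no date or further description of the batches.

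**Figure D4:**
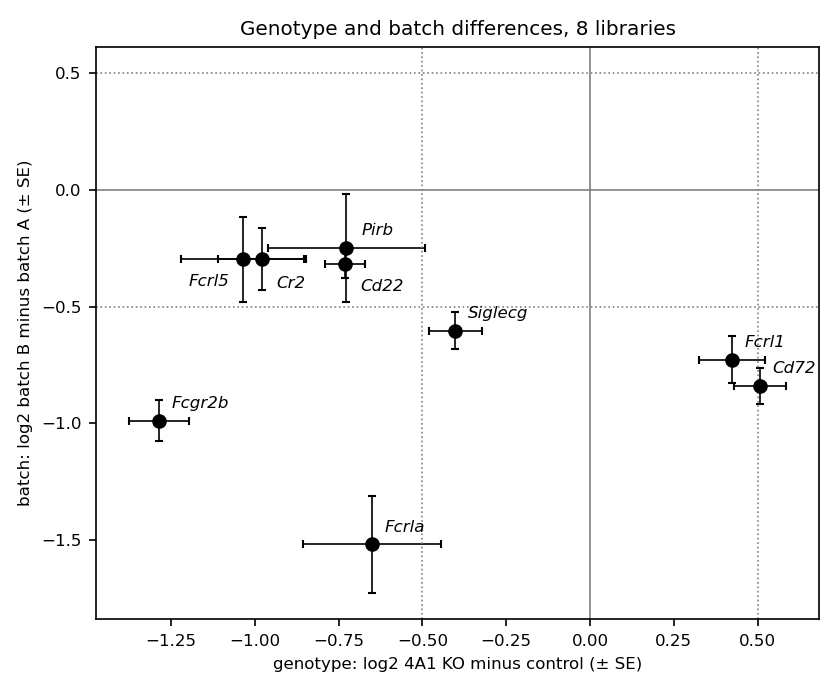
Genotype term (x axis, log2 4A1 KO minus control) and batch term (y axis, log2 batch B minus batch A) of the 9 genes tested, each ± SE, from edgeR's fit of all 8 libraries, with dotted lines at -0.5 and 0.5. All 9 genes lie below 0 on the batch axis, down to -1.52 for Fcrla, while on the genotype axis they spread from -1.29 for Fcgr2b to 0.51 for Cd72.

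No difference between the sexes or the batches was detected in the genotype effect on the co-receptors. No gene of the 9 was called for the sex term, beside 2.43% of 14211 genes, and Fcgr2b had the smallest adjusted p (male minus female -0.34, adjusted p = 0.0485, under the fold threshold). For the interaction of genotype with sex edgeR called 0 of the 9 genes, beside 0% of 14211 genes with 405 at an unadjusted p under 0.05, and no co-receptor was among those 405, the lowest unadjusted p being 0.262 for Pirb. For the interaction of genotype with batch 0 of the 9 were called, beside 0.00704% of 14211 genes with 610 at an unadjusted p under 0.05. Siglecg had the lowest unadjusted p, 0.0322, with a genotype difference that was 0.33 less negative in batch B (adjusted p = 0.999). Its log2 ratios of same-numbered libraries were -0.63 and -0.49 in batch A and -0.27 and -0.22 in batch B. The standard errors of the interactions were 0.34 to 0.49 for Fcrl5, Fcrla and Pirb and 0.12 to 0.28 for the others. Over all 8 libraries the same 7 co-receptors were called, with log2 fold changes from -1.29 for Fcgr2b to 0.51 for Cd72. For Cd22, Fcgr2b, Fcrl5 and Cr2 all 4A1 KO libraries were below all controls, beside 19.8% of 14211 genes that separated in that direction. None of the 9 had all 4A1 KO libraries above all controls, beside 17% of genes.

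The mRNAs of proteins that the inhibitory receptors recruit, and of kinases, phosphatases and adaptors that act beside them, were read from the same fit. Of 15 effectors, Pag1 was increased and Ptpn22, Dok2 and Dok3 were decreased, 4 in all beside 25.3% of all genes tested, and the median log2 fold change was -0.11. The phosphatases of the ITIM stayed under the fold threshold, with -0.35 for Inpp5d (standard error 0.05) and -0.22 for Ptpn6 (0.06) lower and 0.41 for Ptpn11 (0.05) higher. Lyn, the kinase that phosphorylates the motif, was at -0.39 (standard error 0.05). Ptpn22, a phosphatase that restrains Src family kinases, fell most in the list, by 1.75 on the log2 scale (standard error 0.18, adjusted p = 8.45e-05). It had 11.4 ± 7.81 CPM in control and 3.17 ± 1.28 CPM in 4A1 KO (SD, n = 3). Pag1, the membrane adaptor of the kinase Csk, rose by 0.59 (standard error 0.05, adjusted p = 3.46e-05). Dok2 (-1.54) and Dok3 (-0.67, and -0.48 without a call on log2(TPM + 1)) encode adaptors that dampen Ras signalling.

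On the activating side, 4 of 11 genes of the antigen receptor and its signalling proteins were decreased and 0 were increased, beside 13.7% and 11.6% of all genes tested, with a median of -0.29. The signalling chains Cd79a (-0.67) and Cd79b (-0.89), the kinase Syk (-0.75) and the lipid kinase subunit Pik3cd (-0.79) were called. Cd79b had 494 ± 26.0 CPM in control and 267 ± 24.6 CPM in 4A1 KO (SD, n = 3, adjusted p = 2.31e-05 from edgeR). The adaptor Blnk was at -0.42 (standard error 0.05), under the threshold.

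The ligands of the receptors and the enzymes that make sialic acid were a further group of 18 genes, of which 4 were decreased and 0 increased, with a median of -0.19. These 4 of 18 stand beside 25.3% of all genes called in either direction. Nans (-0.81) and Nanp (-1.21, 9 to 31 counts per library), successive enzymes of sialic acid synthesis, and Cmah (-1.09), which makes the glycolylated form preferred by mouse Cd22, were decreased, as was the sialyltransferase St3gal6 (-0.53). St6gal1, which makes the linkage that Cd22 binds, was at -0.22 (standard error 0.05). Cmah had 6.53 ± 0.886 CPM in control and 3.05 ± 0.531 CPM in 4A1 KO. The MHC class I genes that encode ligands of Pirb were higher but under the fold threshold, H2-K1 by 0.496 (adjusted p = 4.42e-05) and H2-D1 by 0.40 (adjusted p = 2.02e-04). H2-K1 was called with upper-quartile scaling (0.52) and without replicate 2 (0.54). On log2(TPM + 1), Cmah (-0.43) and St3gal6 (-0.37) were under the fold threshold, while H2-K1 (0.53, adjusted p = 7.11e-04 from limma) and Gne, an earlier enzyme of sialic acid synthesis (-0.55, adjusted p = 0.00284), were called. Sema4d, the ligand of Cd72, was at -0.42.

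Other inhibitory receptors were listed together with the ligands Cd200, which binds Cd200r1, and Cd274 and Pdcd1lg2, which bind Pdcd1. Of 24 listed genes 23 were in the tables and 15 were tested, of which 5 were increased and 4 decreased, beside 11.6% and 13.7% of all genes tested, with a median of -0.03. Cd200 (1.09, standard error 0.08, adjusted p = 1.65e-05), Lag3 (2.27), Vsir (0.97), Btla (0.56) and Havcr1 (0.55) were higher, Havcr1 without a call over all 8 libraries (0.47) and Vsir without one on log2(TPM + 1) (0.49). Lag3 nevertheless had only 0.819 ± 0.160 CPM in 4A1 KO, with 5 to 41 counts per library. Ceacam1 (-1.58, standard error 0.17, adjusted p = 9.09e-05), Sirpa (-1.55), Milr1 (-0.94) and Pecam1 (-0.83) were lower. Btla, the receptor for the herpesvirus entry mediator, was the most abundant of the increased genes, at 114 ± 11.0 CPM in control and 167 ± 4.66 CPM in 4A1 KO. Ly9 was at -0.46, under the threshold. Among 30 paralogs and Fc receptors, 25 were in the tables and 7 were tested. Cd5l was increased (0.98, adjusted p = 0.0446 in edgeR, 0.571 ± 0.0976 CPM in 4A1 KO) and 0 were decreased, beside 11.6% and 13.7% of all genes tested. The median was 0.30. Cd5l had 6 to 29 counts per library, and its call was lost with DESeq2 (adjusted p = 0.253), without the replicate block (adjusted p = 0.0913 in edgeR) and without replicate 3 or 4 (0.184 and 0.132). Fcer2a, the low-affinity IgE receptor whose promoter drives the Cre transgene, was at 0.30 and Cr1l, a complement regulator related to Cr2, at 0.33, and Cd55 was at 0.27, all under the threshold.

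**Figure D5:**
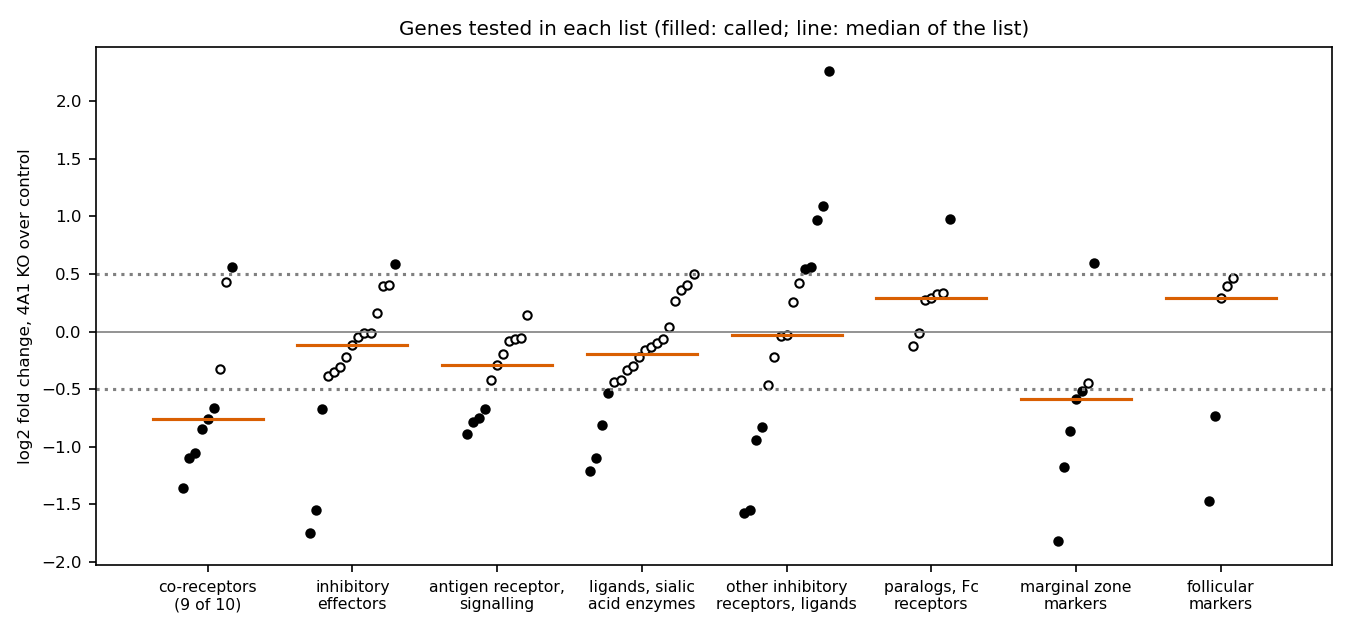
Log2 fold change (4A1 KO over control, edgeR, 3 libraries per genotype) of each gene tested in the co-receptor list and 7 comparison lists, with called genes filled, lines at the list medians and dotted lines at -0.5 and 0.5. The co-receptor median lies at -0.76 and the marginal zone marker median at -0.58, while the other non-marker lists lie between -0.29 and 0.30.

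Cr2 and Fcrl5 are higher in marginal zone B cells than in follicular B cells, and Cd5 and Siglecg are associated with B-1 cells, so the markers of these cells were measured in the same libraries. The 7 marginal zone markers summed to 269, 367, 273 and 284 CPM in control replicates 1 to 4 and to 136, 171, 133 and 174 CPM in 4A1 KO replicates 1 to 4. Mzb1 made up most of the difference, and without it the sums were 114, 199, 100.1 and 108 CPM in control and 96.9, 127, 94.6 and 106 CPM in 4A1 KO, which overlapped. Within each same-numbered pair the 4A1 KO sum was lower, with and without Mzb1. Control 2, where Cr2 and Fcrl5 were highest, had the highest sum either way. Of these markers Mzb1 (-1.82), Dtx1 (-1.17), Cd36 (-0.87), Plac8 (-0.58) and Cd9 (-0.51) were decreased and the sphingosine phosphate receptor S1pr3 (0.59) was increased, and Cd1d1 was at -0.45. These 6 called markers of 7 stand beside 25.3% of all genes tested, and over all 8 libraries Cd9 was not called and Cd1d1 (-0.52) was. The 5 follicular markers summed to 3569 to 4628 CPM in control and 4339 to 5155 CPM in 4A1 KO, of which Fcer2a made up most. Of these 5, Cxcr5 (-1.47) and Klf2 (-0.73) were decreased, beside 13.7% of all genes tested. Ccr7 (0.47), Ighd (0.40) and Fcer2a (0.30) were higher at an adjusted p of at most 0.00142 but under the fold threshold, and the median of the 5 was 0.30. The 6 B-1 markers summed to 46.2 to 58.3 CPM in control and 46.5 to 53.4 CPM in 4A1 KO. Of these markers 0 were called, beside 25.3% of all genes tested. Zcwpw1 (-0.03) made up most of that sum, at 37.6 and 36.6 CPM, and Zbtb32 was at -0.15, Spn at -0.28 and Bhlhe41 at -0.33. In mice of this kind the authors found splenic follicular and marginal zone B cell numbers unchanged, while in mixed bone marrow chimeras both were reduced. Those cells were counted without culture. The part of marginal zone and follicular cell numbers in the values of Cr2 and Fcrl5 was not tested.

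Markers of cells that have differentiated after activation were read too. The 5 plasma cell markers summed to 621 to 936 CPM in control and 550 to 692 CPM in 4A1 KO, and Irf4 (-0.15, adjusted p = 0.101) made up most of the sum. Of these 5, Xbp1 (-0.94), Sdc1 (-1.22) and Prdm1 (-0.64) were decreased, beside 13.7% of all genes tested. Prdm1 was not called over all 8 libraries (-0.45), and Jchain was at 0.21 with a sign that changed between settings. Of the 4 germinal centre markers Bcl6 (0.87) was increased and 0 were decreased, beside 11.6% and 13.7% of all genes tested. Fas was at -0.28 and Mybl1 at -0.40, and the list summed to 58.7 to 77.4 CPM in control and 70.4 to 90.5 CPM in 4A1 KO. Plasma cells lose Cd22, Cr2 and Cd72, among other receptors, and the part of differentiation in the values of the co-receptors was not tested.

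The gene whose pattern over the 8 libraries was most like that of each co-receptor was sought among 8381 or 8382 genes that averaged at least 10 CPM. Likeness was Pearson's r of log2(CPM + 1), and the libraries share genotype and batch, so that r is high for many genes. Fcgr2b was most like Pld4, an endolysosomal nuclease (r = 0.990), whose log2 fold change was -1.31. The most alike of Cr2 was Sdccag8 (r = 0.991, log2 fold change -0.51). That of Fcrl5 was Pip4k2a (0.986 and -0.57) and that of Cd22 was Ncaph2 (0.991 and -0.30), in the same order. For Cd72 it was the pseudogene Rps25-ps1 (0.990 and 0.19) and for Fcrl1 it was Cutc (0.990 and 0.27). Siglecg was most like Stxbp2 (0.986 and -0.18), Fcrla was most like Cyb561a3 (0.980 and -0.23) and Pirb was most like Gm8566 (0.961 and -0.41). Each of these most alike genes changed less than its co-receptor. None of these genes was itself a co-receptor.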

How the data were processed

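The authors trimmed the reads with Trim Galore 0.6.6, mapped them to GRCm39 with HISAT2 2.1.0 and counted them with Seqmonk over merged isoforms by strand, and deposited the raw read counts. The authors computed the deposited TPM with StringTie 2.1.1. Of the per-sample columns 0 were left unused.

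Differential expression of the counts was tested with edgeR 4.0.16 under R 4.3.3 (filterByExpr, TMM, quasi-likelihood F test), with batch, sex and genotype as terms. In the 6 libraries tested these terms are the same as the replicate block. Samples were grouped by the genotype in their labels. For TPM, limma 3.58.1 was run on log2(TPM + 1), and DESeq2 1.42.0 was an alternative. Tests were two-sided with Benjamini-Hochberg adjustment over all genes tested. CPM are counts per 1e6 counts of the library total. Each mouse gave 1 library, and counting error weighs most on genes with at most 50 counts in every library, among them Pirb, Cd5, Nanp, Lag3, Cd5l and Col3a1.

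Same-numbered libraries share batch and sex by their labels. Their deviations from the genotype means correlated across genes at r = 0.630, 0.540 and 0.471, and other pairs had a mean of -0.271. Deviations cancel within each genotype, so the negative mean of the other pairs follows from the positive same-number values. It is no separate evidence for the pairing.

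The genes and lists were chosen with earlier results of these data known. Named are all co-receptors, Eif4a1, up to 4 genes of each list with the smallest adjusted p, up to 3 markers of each cell type with the highest mean CPM (mostly only as sums where they failed the count filter), and the gene most like each co-receptor. Some list genes are left out and not reported here. Further list genes are named because they were called, or for their role, and were chosen after their values had been seen.

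Of 53242 identifiers 52647 were matched to GENCODE M39. Similar transcripts were found with blastn 2.17.0 (at least 90% identity over 300 bases). Membrane stretches were windows of 19 residues with a mean hydropathy of at least 1.6 beyond the first 40 residues. In simulated counts edgeR recovered 80 of 99 genes changed 2-fold and 100 of 100 changed 4-fold among 14061 genes, with 7 false calls. In simulated TPM of 12976 genes limma recovered 200 of 200 with 9 false calls. The simulated data held no batch or sex effects, and few genes changed, each 2-fold or 4-fold. The simulated TPM lay above the real levels, and the direction of limma's calls was not checked. Recovery of smaller changes was not tested. The alternatives were normalization, tool, filters, pseudocount, block, libraries and threshold.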

Additional observations from a re-analysis of the deposited data

Results flagged for a closer look

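In groups of 4 libraries, a highest or lowest library was marked where Dixon's ratio, its gap to the nearest other library as a share of the group's range, passed the 95% critical value. Of 40 groups examined 4 were marked, where chance gives about 2 (1 in 20). The 40 groups hold each gene and genotype in CPM and again in TPM, so they are not independent, and Cr2 was marked in both units. Control 2, the batch A female, was highest in 3 of them. Its Fcrl5 level of 24.3 CPM stood against 11.3 CPM in the next control (gap 0.928 of the range), and its Cr2 level of 117 CPM stood against 67.6 CPM (gap 0.868). In TPM, Cr2 was 38.7 in control 2 and 23.1 in the next control (gap 0.839). Without replicate 2 both genes stayed decreased in 4A1 KO, with log2 fold changes of -0.92 for Cr2 and -0.74 for Fcrl5. Control 3, a batch B male, had 0 counts of Cd5 where the next lowest control had 0.463 CPM (gap 0.892).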

How the results depend on the processing

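Values are for edgeR's 6-library fit unless said. Of the 9 co-receptors tested, Cd22, Fcgr2b, Fcrl5 and Cr2 stayed called in all 11 alternatives for the counts, and no co-receptor changed direction. The number called was 7, and 4 without the replicate block and 4 with glmTreat. It was 6 to 8 when each replicate was left out, with 8 without replicate 3, where Cd5 passed the filter. In all genes glmTreat called 1627, and leaving out replicates gave 3083 to 3821. The list genes called numbered 22, 13 with glmTreat and 20 to 22 without each replicate. On TPM the number was 5, and 3 without the replicate block (beside 18.2% of all genes), where Fcgr2b (adjusted p = 0.0674 from limma) and Cd72 (0.118) were lost, and it was 5 to 6 without each replicate. Without the TPM filter Fcrl5 was lost (adjusted p = 0.0934), and with a pseudocount of 0.1 Fcrla was called (0.0465). Genes of the lists that changed sign were uncalled in the reported fit. Among them were Ctla4 (0.26, and -0.02 in all 8 libraries), Jchain (-0.121 in all 8 libraries, -0.413 to 0.943 without each replicate) and Itga2b (0.129 in all 8 libraries). Zbtb32 (-0.288 to 0.117) and Col1a1 (-0.796 to 0.296) changed sign without replicate 2. Jchain was called without replicate 2 (adjusted p = 0.0126) and Col1a1 without replicate 4 (0.0177). The call of Btla was lost without replicate 2 (0.49), that of Fn1 without replicate 3 (adjusted p = 0.0573) and that of Adgre1 without replicate 4 (0.43), and that of Cd36 without the replicate block (adjusted p = 0.155). The causes were not tested. The median of all genes moved by under 0.1 with other scalings (0.01 with TMM and DESeq2's size factors, 0.03 with upper quartile). Depth limits Pirb and Cd5 and the called list genes Nanp (9 to 31 counts), Lag3 (5 to 41), Cd5l (6 to 29) and Col3a1 (1 to 38), with at most 50 counts per library.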
